A study of Mus musculus with 6 samples.

Results

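The 10 genes described here handle cholesterol after it has been made or taken up: Lrp1 and Mylip act at the cell surface, Npc1 and Npc2 in the lysosome, Soat1 in esterification, Abca1, Abcg1, Apoe and Apod in export and carriage, and Nr1h2 in sensing. They were chosen by name, and all 10 were found among the 54838 genes of the deposited count table. The table holds 6 RNA sequencing libraries from mouse sciatic nerve at postnatal day 3, 3 of the genotype CnpCre Actl6afl/fl (conditional knockout, cKO) and 3 labelled WT, all on a strain given as C57 Bl. Actl6a encodes BAF53a, a subunit of BAF and other chromatin complexes, and the Cre is named for Cnp, a gene of myelinating glia, so that many cells of the nerve lie outside the lineage it marks. The labels give neither the Cre and floxed status of the WT animals nor the number of animals per library, and p-values therefore measure the spread between libraries, part of which may be technical.

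Cells take up cholesterol through lipoprotein receptors, and the esters in lipoproteins are cleaved in the lysosome, where the soluble protein NPC2 hands cholesterol to the membrane protein NPC1 for release. Surplus sterol is esterified by SOAT1 for storage in lipid droplets, or exported by ABCA1 and ABCG1 to carriers such as APOE. Oxysterols activate the nuclear receptors LXR alpha and LXR beta (Nr1h3 and Nr1h2), which switch on Abca1, Abcg1, Apoe and Mylip. Schwann cells, the glia of the nerve, use much cholesterol for myelin, and nerve macrophages also express genes of export and lysosomal handling.

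Npc1 fell in cKO nerves, and it was the 1 gene of the 10 that passed the test across all genes. Of 18775 genes tested, 18.8% were called, 8.55% higher and 10.3% lower in cKO nerves (edgeR quasi-likelihood test, adjusted p below 0.05). All 10 genes passed the filter on low counts; with this test 0 were called higher and 1 was called lower, and at an unadjusted p below 0.05 the counts were 2 higher and 1 lower. DESeq2 called 1 higher, Apoe, and 1 lower, Npc1, beside 22.0% of 20217 genes it tested, 10.5% higher and 11.5% lower. The normalised levels of cKO and WT libraries did not overlap for 4 of the 10 genes, 2 higher and 2 lower in cKO, beside 42.7% of all genes tested, 21.0% higher and 21.7% lower. The 2 higher genes, Apoe and Soat1, overlapped in TPM, a scale per unit of exonic length defined below. The median log2 fold change was 0.11 over the 10 genes and 0.05 over all genes tested.

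**Figure D1:**
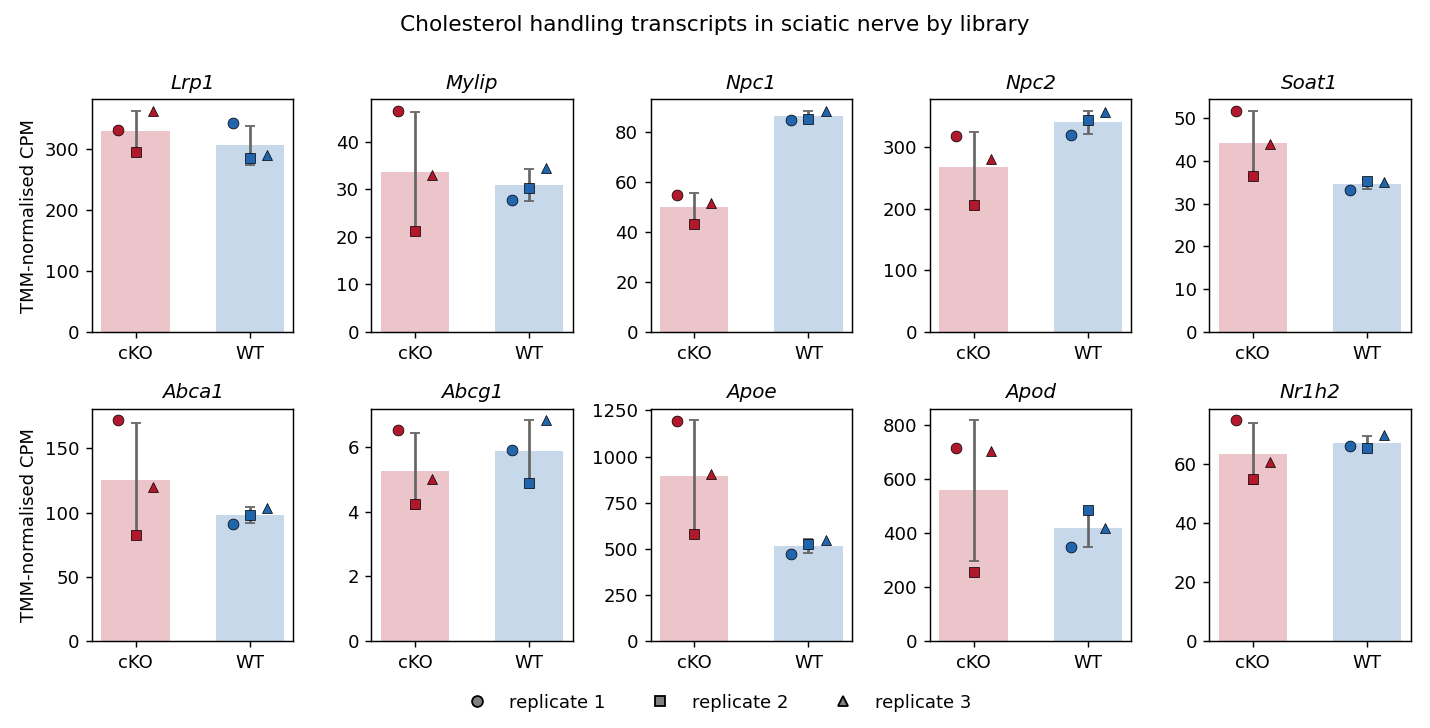
TMM-normalised counts relative to library size (CPM, linear axes from 0) of the 10 genes in each library, with cKO at the left and WT at the right of each panel; bars are means, error bars SD over 3 libraries, and symbols the replicate numbers. Npc1 lies at 43.4 to 54.8 CPM in cKO and 85.1 to 88.7 CPM in WT nerves, and the square, cKO replicate 2, is the lowest cKO library in every panel.

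The libraries held 31404107 to 32674317 counts in cKO and 33084003 to 36760296 in WT. Actl6a itself read 42.4, 47.6 and 41.5 CPM in cKO and 48.6, 53.3 and 46.2 CPM in WT nerves and was not called (log2 fold change -0.17, edgeR adjusted p = 0.243). Without cKO replicate 2 it was called lower (-0.24, edgeR adjusted p = 0.0487). With a difference of this size, its count over all exons of whole nerve is a weak check of the labels. Cnp was at 307.7, 177.0 and 318.3 CPM in cKO and 1401, 1384 and 1459 CPM in WT nerves. The library of cKO replicate 2 stood apart: 15 skeletal muscle markers took 7.26% of its counts, against 0.585% in cKO replicate 1, 0.685% in cKO replicate 3 and 0.437 to 0.622% in WT nerves. For all 10 genes cKO replicate 2 was the lowest of the cKO libraries, a position it held in 45.2% of all genes tested. Results are therefore given with and without it.

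Uptake and its control were described by Lrp1 and Mylip. Lrp1 (ENSMUSG00000040249, GRCm38 chromosome 10, 127538161 to 127621148), a large endocytic receptor for APOE-carrying lipoproteins that is also needed in Schwann cells, read 330.1, 294 and 362 CPM in cKO and 342, 285 and 290.0 CPM in WT nerves. The groups overlapped throughout, and the log2 fold change was 0.10, with a 95% interval of -0.18 to 0.39 (edgeR adjusted p = 0.569). Mylip (ENSMUSG00000038175, chromosome 13, 45389742 to 45412022) encodes IDOL, a ubiquitin ligase that marks lipoprotein receptors for degradation. It read 46.6, 21.1 and 33.1 CPM in cKO and 27.8, 30.4 and 34.4 CPM in WT nerves, so that the cKO libraries spanned the whole WT range on both sides. Its log2 fold change was 0.12, with a 95% interval of -0.54 to 0.79 (edgeR adjusted p = 0.775); it was 0.37 without cKO replicate 2 and -0.19 without cKO replicate 1.

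Among 21 tested lipoprotein receptors and their regulators, Lrp1 and Mylip included, 3 rose and 2 fell, with a median log2 fold change of 0.17. Scarb1, the HDL receptor, fell to 42.2 ± 3.18 CPM in cKO, against 93.4 ± 8.25 CPM in WT nerves (SD, n = 3 each). The call held in every fit that left out 1 library. Vldlr, a receptor for triglyceride-rich lipoproteins, rose (log2 fold change 0.33), as did Dab2, an endocytic adaptor (0.40), and the scavenger receptor gene Stab1 (0.40). The count of 3 risen was 8 without cKO replicate 2, 4 without cKO replicate 1 and 0 without cKO replicate 3 or any 1 WT library.

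In the lysosome, Npc1 (ENSMUSG00000024413, chromosome 18, 12189692 to 12236400) read 54.8, 43.4 and 51.7 CPM in cKO nerves, against 85.1, 85.5 and 88.7 CPM in WT nerves. Every cKO library lay well below every WT library. The mean was 49.98 ± 5.88 CPM in cKO and 86.4 ± 1.98 CPM in WT nerves (SD, n = 3 each), a fall of 42.2% (log2 fold change -0.79, SE 0.10, edgeR adjusted p = 0.00372). The call held in all 11 alternative fits, where the log2 fold change ran from -0.86 to -0.69 and the adjusted p from 8.5e-08 to 0.028; without cKO replicate 2 it was -0.70. Of the exonic bases of Npc1, 5.31% overlap Rmc1 or Gm15956 on the other strand, and strand was not used in counting. Rmc1 was not called (-0.10 on the log2 scale, edgeR adjusted p = 0.419). The other gene, Gm15956, held 3 to 10 counts per library. In whole nerve, fewer cells of a type and less RNA per cell cannot be told apart.

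Npc2 (ENSMUSG00000021242, chromosome 12, 84754562 to 84773152) read 319, 207.0 and 281 CPM in cKO and 320, 345 and 357 CPM in WT nerves. All cKO libraries lay below WT, but cKO replicate 1 came within about 1 CPM of the lowest WT library. The log2 fold change was -0.34, with a 95% interval of -0.73 to 0.05 (edgeR adjusted p = 0.188), and -0.19 without cKO replicate 2 (edgeR adjusted p = 0.115). Of 13 tested genes of lysosomal cholesterol egress, Npc1 and Npc2 included, 4 fell and 0 rose in edgeR, with a median of -0.18; at an unadjusted p below 0.05 the counts were 5 and 0, and in DESeq2 4 and 0. Besides Npc1 these were Tmem97, a regulator of NPC1 protein levels (log2 fold change -0.56), the lysosomal calcium channel gene Mcoln1 (-0.51) and Scarb2, which encodes the lysosomal membrane protein LIMP-2 (-0.42). When any 1 WT library was dropped, 1 or 2 of the list were called lower, and when cKO replicate 3 was dropped, 2. Lipa, the acid lipase that cleaves cholesteryl esters, read 67.6 ± 7.55 CPM in cKO and 75.3 ± 3.26 CPM in WT nerves (SD, n = 3 each, log2 fold change -0.16, edgeR adjusted p = 0.31).

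**Figure D2:**
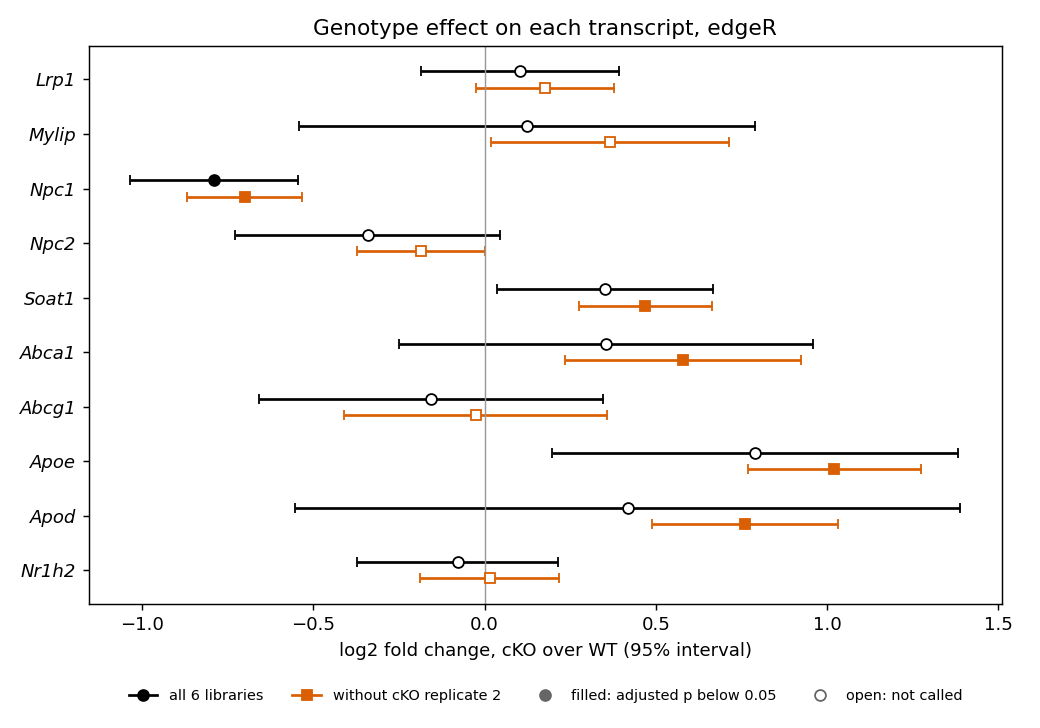
Log2 fold change of each gene, cKO over WT, with its 95% interval from edgeR, on all 6 libraries (circles) and without cKO replicate 2 (squares); filled symbols passed an adjusted p of 0.05. Npc1 is filled in both fits, whereas Soat1, Abca1, Apoe and Apod are filled only in the fit without that library.

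Onward movement of cholesterol between membranes uses soluble carriers and proteins of membrane contact sites. Of 21 tested genes of intracellular sterol transfer, 3 were called lower and 1 higher; the list median was -0.07 on the log2 scale. Stard4, a cytosolic sterol carrier, fell to 53.4 ± 1.86 CPM in cKO, against 108.8 ± 3.38 CPM in WT nerves, and Osbpl1a, an oxysterol-binding protein of late endosomes, to 76.2 ± 10.8 CPM, against 181.0 ± 2.31 CPM (SD, n = 3 each). Their log2 fold changes were -1.03 and -1.25 and both held in every fit that left out 1 library. The third fall was in Osbpl5, a lipid transfer protein of the endoplasmic reticulum (-0.28), which among the fits with 1 library dropped was called in that without cKO replicate 2. Cav1, the coat protein of caveolae, rose (0.49), but was not called when cKO replicate 3 or any WT library was dropped. The contact-site transporter genes Gramd1a (-0.07) and Gramd1b (-0.07) were not called.

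Soat1 (ENSMUSG00000026600, chromosome 1, 156424525 to 156474331), which esterifies cholesterol in the endoplasmic reticulum, read 51.7, 36.5 and 44.0 CPM in cKO and 33.2, 35.2 and 35.1 CPM in WT nerves. In CPM all cKO libraries lay above WT, the lowest, cKO replicate 2, by about 1 CPM. In TPM cKO replicate 2 read 9.04, below the WT libraries at 10.62 to 10.71. The log2 fold change was 0.35, with a 95% interval of 0.04 to 0.67 (edgeR adjusted p = 0.112), with 0.47 without cKO replicate 2 (edgeR adjusted p = 0.00124) and 0.22 without cKO replicate 1 (edgeR adjusted p = 0.214). Soat2, the other sterol acyltransferase gene, was low, at 1.78 ± 0.440 CPM in cKO and 1.46 ± 0.135 CPM in WT nerves (SD, n = 3 each, edgeR adjusted p = 0.417). Of 10 tested genes of esterification and ester hydrolysis 1 rose and 1 fell, with a median of -0.19. The risen gene was Plin2, a lipid droplet coat protein, at 107.4, 101.9 and 91.9 CPM in cKO and 66.3, 75.8 and 74.5 CPM in WT nerves (log2 fold change 0.48, edgeR adjusted p = 0.0172), a call lost without any 1 WT library. Plin3, another droplet coat protein, fell (-0.30); of the fits with 1 library dropped, it was called in that without cKO replicate 2 alone.

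Export and carriage were described by Abca1, Abcg1, Apoe and Apod. Apoe (ENSMUSG00000002985, chromosome 7, 19696109 to 19699188), the main lipid carrier of nervous tissue, read 1193, 580.0 and 904 CPM in cKO and 475, 526 and 547 CPM in WT nerves. In CPM all 3 cKO libraries lay above WT, but cKO replicate 2 by far less than the other cKO libraries. In TPM cKO replicate 2 read 658.4, below the WT libraries at 696.5 to 758.7, so this separation depends on the scale. The mean was 892 ± 307 CPM in cKO and 516 ± 36.8 CPM in WT nerves (SD, n = 3 each), with a log2 fold change of 0.79 (95% interval 0.20 to 1.38) that missed the threshold (edgeR adjusted p = 0.0711). DESeq2 called it (adjusted p = 0.0114), as did edgeR without cKO replicate 2, where the log2 fold change was 1.02 (adjusted p = 3.69e-05). Without cKO replicate 1 it was 0.52 (edgeR adjusted p = 0.128).

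Abca1 (ENSMUSG00000015243, chromosome 4, 53030787 to 53159895), which loads cholesterol and phospholipid onto apolipoproteins, read 172.0, 82.8 and 120.1 CPM in cKO and 91.4, 98.2 and 103.7 CPM in WT nerves. Here cKO replicate 2 lay below every WT library and the other cKO libraries above, so the groups overlapped. The log2 fold change was 0.36, with a 95% interval of -0.25 to 0.96 (edgeR adjusted p = 0.353), with 0.58 without cKO replicate 2 (edgeR adjusted p = 0.0196) and 0.05 without cKO replicate 1 (edgeR adjusted p = 0.846). Abcg1 (ENSMUSG00000024030, chromosome 17, 31057698 to 31115777), which passes sterol to HDL, was the lowest of the 10 genes, at 6.53, 4.24 and 5.0 CPM in cKO and 5.90, 4.87 and 6.81 CPM in WT nerves. The groups overlapped, with the lowest value in cKO replicate 2 and the highest in WT replicate 3 (log2 fold change -0.16, 95% interval -0.66 to 0.35, edgeR adjusted p = 0.628). It was -0.34 without cKO replicate 1 and -0.03 without cKO replicate 2.

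Apod (ENSMUSG00000022548, chromosome 16, 31296192 to 31314808) encodes a lipocalin that binds small lipids and is abundant in peripheral nerve. It read 714, 257 and 703 CPM in cKO and 347, 487 and 419 CPM in WT nerves, with cKO replicate 2 below all WT libraries and cKO replicates 1 and 3 above them. The log2 fold change of 0.42 had the widest 95% interval of the 10 genes, -0.55 to 1.39 (edgeR adjusted p = 0.486), and was 0.76 without cKO replicate 2 (edgeR adjusted p = 0.000768). It was 0.20 without cKO replicate 1 and 0.22 without cKO replicate 3, neither of them called.

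Of 14 tested efflux transporters and lipid acceptors, these 4 genes included, 1 rose and 4 fell, with a median of 0.30 over the list and -0.03 over the 10 that are not described above. Abca2, a transporter of late endosomes and lysosomes that is abundant in myelinating glia, read 40.0, 34.6 and 37.6 CPM in cKO and 157.4, 133.9 and 133.6 CPM in WT nerves, a 3.79-fold fall (log2 fold change -1.92, SE 0.10, edgeR adjusted p = 0.000263). Abcg4, a close relative of Abcg1, fell to 2.06 CPM in cKO, against 4.78 CPM in WT nerves (log2 fold change -1.21), and Abca8a fell as well (-0.76). The calls of Abca2, Abcg4 and Abca8a held in every fit that left out 1 library. The fourth fall was in the phospholipid transporter gene Abca7 (-0.43). Apoc1, whose gene lies beside Apoe, rose to 6.87, 2.51 and 6.29 CPM in cKO, against 1.41, 1.61 and 1.86 CPM in WT nerves (log2 fold change 1.68, edgeR adjusted p = 0.0261), which among the fits with 1 library dropped was called in that without cKO replicate 2. That fit gave 7 of the list higher and 4 lower; without cKO replicate 3 the count higher was 1, and without cKO replicate 1 or any WT library it was 0.

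Without cKO replicate 2, 4 of the 10 genes were called higher, Abca1, Apoe, Apod and Soat1, and 1 lower, Npc1. In that fit 35.4% of 19256 genes tested were called, 17.8% higher and 17.6% lower. With the muscle marker share of each library as a covariate, the same 4 were called higher and Npc1 lower, beside 34.9% of all genes, 17.3% higher and 17.6% lower. That share was 7.26% in cKO replicate 2 and at most 0.685% in any other library. The covariate therefore mostly marks cKO replicate 2, and its fit is not a check independent of leaving that library out. Without cKO replicate 1 or 3, or any 1 WT library, 0 of the 10 were called higher in edgeR and 1, Npc1, was called lower.

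The marker lists of other cells of the nerve did not all move alike. Of 15 macrophage markers 12 rose and 0 fell, and none was at 0; the count was 14 without cKO replicate 2, 8 without cKO replicate 3, 3 without WT replicate 1 and 6 without WT replicate 2 or 3. Together they took 0.198%, 0.115% and 0.152% of counts in cKO and 0.0797%, 0.0923% and 0.0881% in WT libraries. In CPM, 9 of the 10 genes, all but Lrp1, had the same order among the cKO libraries, as had 26.2% of all genes tested. In TPM, Apod and Npc1 did not have it either, being higher in cKO replicate 3 than in cKO replicate 1. Cd68, a lysosomal protein of macrophages, read 61.7, 46.9 and 50.4 CPM in cKO and 25.5, 24.8 and 29.9 CPM in WT nerves. Of 11 Schwann lineage markers 7 fell and 1 rose, with none at 0. Their share was 0.534%, 0.264% and 0.502% in cKO and 2.23 to 2.56% in WT libraries. The order among the cKO libraries was the same as for the macrophage markers, and what sets this order was not tested. Of 12 fibroblast markers 4 rose and 0 fell (7 higher without cKO replicate 2), with shares of 2.35%, 1.61% and 2.37% in cKO and 1.91 to 1.98% in WT libraries. Of 7 perineurial markers 3 rose and 1 fell (6 higher without cKO replicate 2, 0 without cKO replicate 3 or any WT library), with shares of 0.0454%, 0.0205% and 0.0481% in cKO and 0.0334 to 0.0357% in WT libraries. The fibroblast and perineurial shares were below WT in cKO replicate 2 and above it in cKO replicates 1 and 3. Both Apod and Abca1 had this pattern in CPM and in TPM, and Apoe and Soat1 had it in TPM. How many of all genes have it was not counted. Erythroid markers took 2.29%, 0.779% and 0.722% in cKO and 0.271 to 0.396% in WT libraries. Of 10 endothelial markers 1 rose and 0 fell on all 6 libraries, with a median log2 fold change of 0.09. Of 10 markers of pericytes and smooth muscle 0 rose and 1 fell, with a median of 0.11. The part of these cells in the values of the 10 genes was not tested.

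**Figure D3:**
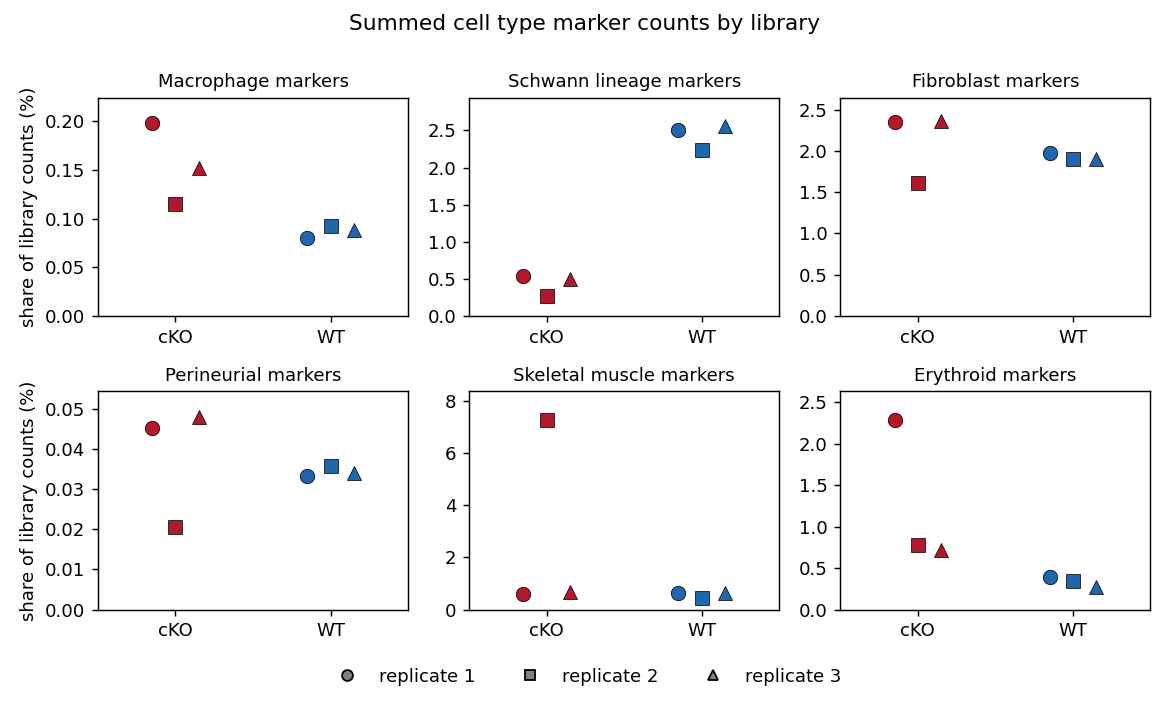
Share of each library's counts (%, linear axes from 0) taken by 6 lists of cell type markers, with cKO at the left and WT at the right; each symbol is 1 library. Macrophage marker shares are 0.115 to 0.198% in cKO and 0.0797 to 0.0923% in WT, and the muscle markers reach 7.26% in cKO replicate 2.

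Sensing was described by Nr1h2 (ENSMUSG00000060601, chromosome 7, 44549616 to 44553951), which encodes LXR beta. It read 74.9, 54.8 and 60.7 CPM in cKO and 66.0, 65.3 and 69.8 CPM in WT nerves, and the cKO values lay on both sides of WT. The log2 fold change was -0.08, with a 95% interval of -0.37 to 0.21 (edgeR adjusted p = 0.678), and 0.02 without cKO replicate 2. Nr1h3, which encodes LXR alpha, was far lower, at 3.28 ± 0.403 CPM in cKO and 2.37 ± 0.742 CPM in WT nerves (SD, n = 3 each, log2 fold change 0.47, edgeR adjusted p = 0.236). Of 10 tested receptors, partners and cofactors of LXR, 0 were called in either direction by edgeR or DESeq2, and 1, the cofactor gene Nrip1, was higher at an unadjusted p below 0.05. Their median log2 fold change was 0.04.

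The 15 tested targets of LXR went both ways, with 3 higher, 4 lower and a median of 0.36. Apoc1, Arl4c (log2 fold change 0.50) and Smpdl3a (0.51) rose, and Scd1 (-1.92), Scd2 (-1.80), Abcg4 and Srebf1 (-0.43) fell. Scd1, Scd2 and Srebf1, of fatty acid desaturation and its control, are also controlled by SREBP factors. Of the 4 targets among the 10 genes, Abca1, Abcg1, Apoe and Mylip, none passed the edgeR test on all 6 libraries. Leaving out cKO replicate 2 gave 6 higher and 4 lower, and leaving out any other single library gave 0 higher. Without cKO replicate 3 or any 1 WT library the count lower was 3. Scd1, Scd2 and Abcg4 stayed called there, and Srebf1 did not. For comparison, 22 of 23 genes of cholesterol synthesis and its SREBP2 control fell and 0 rose in edgeR, at an unadjusted p below 0.05 and in DESeq2 alike, with a median log2 fold change of -1.90. Among the 10 genes Npc1 was the 1 called in that direction.

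Promoters were searched for 1 strict form of the LXR element close to the start of transcription. RefSeq windows on GRCm38.p6 were found for 8 of the 10 genes, and the 250 bases before each start were searched on both strands for the LXR-type repeat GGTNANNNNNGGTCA. The letters were found in 0.177% of 32851 windows of mouse genes. Of the 8 genes with windows Abca1 had a match, and of the other listed genes Srebf1, in the third of its windows. Npc1 and the LXR target Abcg1 had no window and were not searched. Both matches read on the reverse strand and are in capitals; the sequences run 5′ to 3′ toward the start of transcription, on the minus strand at chr4:53159896-53160145 for Abca1 and chr11:60210472-60210721 for Srebf1.
Abca1: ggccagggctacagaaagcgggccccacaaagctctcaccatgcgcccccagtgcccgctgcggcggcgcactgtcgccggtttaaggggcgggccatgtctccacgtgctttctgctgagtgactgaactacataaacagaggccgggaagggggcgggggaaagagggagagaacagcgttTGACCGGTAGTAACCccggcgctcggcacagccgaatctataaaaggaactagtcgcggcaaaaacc
Srebf1: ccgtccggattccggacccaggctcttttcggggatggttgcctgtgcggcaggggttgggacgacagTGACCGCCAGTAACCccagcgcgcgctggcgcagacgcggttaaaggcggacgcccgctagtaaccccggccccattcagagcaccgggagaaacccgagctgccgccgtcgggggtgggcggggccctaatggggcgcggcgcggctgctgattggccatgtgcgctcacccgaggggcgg
The match lies 67 to 53 bases before the start in Abca1 and 182 to 168 bases before it in Srebf1. Of these genes with a like element, Abca1 was at 125.0 ± 44.8 CPM in cKO and 97.8 ± 6.14 CPM in WT (SD, n = 3 each, not called). Srebf1 fell to 48.1 ± 3.23 CPM in cKO, against 64.6 ± 5.52 CPM in WT (SD, n = 3 each, edgeR adjusted p = 0.0263). Whether the genes differ from each other was not tested. The count table sums all starts of Srebf1, so the start that carries the match was not measured on its own. The sterol element TCACNCCAC, the SREBP type, was found by the same search in 1.05% of windows and in none of those of the 8 genes or of Srebf1, so no match overlapped another.

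**Figure D4:**
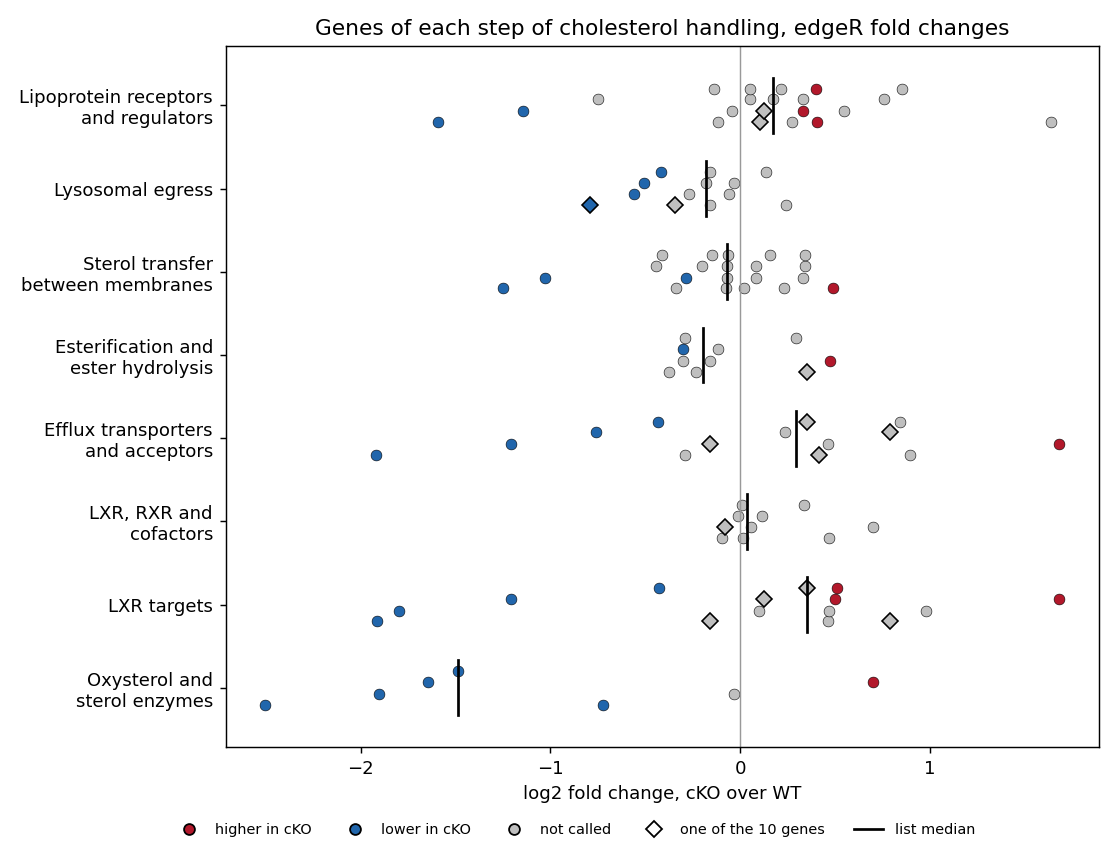
Log2 fold change (cKO over WT, edgeR) of each tested gene in 8 lists of cholesterol handling; red is called higher, blue called lower, grey not called, diamonds are the 10 genes and vertical bars list medians. The medians of the list of LXR receptors, partners and cofactors and of sterol transfer lie near 0 (0.04 and -0.07), and Npc1 is the only diamond that is coloured.

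Per unit of exonic length the 10 transcripts spanned a wide range of levels. In TPM (counts per base of all exons, scaled to a common total in each library), Apoe was highest, at 1181 ± 474 in cKO and 729 ± 31.2 in WT nerves, followed by Apod (622 ± 330 and 489 ± 70.3) and Npc2 (139 ± 40.8 and 189 ± 5.35; SD, n = 3 each). Apoe (658.4 to 1585) and Apod (242.2 to 838.1) overlapped in cKO but not in WT nerves, as did Lrp1 and Abca1. Nr1h2, at 52.9 ± 12.1 TPM in cKO and 60.4 ± 2.17 TPM in WT, and Lrp1, at 52.0 ± 11.3 and 52.3 ± 7.09 TPM, overlapped in both groups. Abca1 and Mylip also overlapped in both groups, with means of 34.1 and 29.4 TPM in cKO and 28.5 and 28.8 TPM in WT. Npc1 averaged 12.4 TPM in cKO and 23.1 TPM in WT, and Soat1 12.6 TPM in cKO and 10.7 TPM in WT; these genes overlapped in cKO nerves, whereas Npc1 was above Soat1 in every WT library. Abcg1 was lowest in both, at 3.62 ± 1.03 TPM in cKO and 4.36 ± 0.720 TPM in WT nerves. Because the length sums all annotated exons, a gene with long alternative exons reads low on this scale.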

How the data were processed

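The authors deposited 1 table of fragment counts per gene with no normalization. Per the file headers, featureCounts 1.6.1 counted pairs with both ends aligned over exons of Ensembl GRCm38 release 95, without regard to strand and with mapping quality of at least 20. Subread 2.0, DESeq2 1.3 and mm10 are listed in the submitters' processing notes. The exonic lengths in bases are in the same deposited table and are used only for TPM. No source used here gives the aligner settings.

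All 54838 rows carry a gene identifier; 54723 matched a symbol of GENCODE M21 (same build) and 115 did not. Testing used edgeR 4.0.16 in R 4.3.3: filterByExpr (minimum count 10), TMM factors, the robust quasi-likelihood test, 2-sided, and Benjamini-Hochberg adjustment over the 18775 genes tested, called below 0.05. CPM are TMM-normalised. Intervals came from the quasi-likelihood statistic. On 5 simulated sets of 18775 genes with 200 changed, this comparison recovered 89.8% of the genes changed 4-fold, 33.0% of those changed 2-fold and 4.68% of those changed 1.5-fold, so small differences were mostly missed there. Alternatives were DESeq2 1.42.0, its size factors, no filter, leaving out each library, a replicate block and a muscle covariate. Counts of libraries within a group differed beyond counting error (8.26 to 312 chi-square units per degree of freedom), so each counted as 1 replicate.

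The 10 genes and all lists were chosen with earlier results of these data known. Named besides them were up to 4 genes with the smallest p of each list, Actl6a and Cnp. Vldlr, Abca7, Lipa, Soat2, Gramd1a, Gramd1b, Srebf1, Smpdl3a, Cyp7b1, Cyp27a1, Cyp46a1, Cd68, Rmc1 and Gm15956 were chosen after their values were seen. 1 gene counted in the list totals is not reported here.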

Additional observations from a re-analysis of the deposited data

How the results depend on the processing

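Over all genes, the counts called higher and lower ran from 449 to 3425 and from 790 to 3398 when 1 library was left out (1605 and 1929 on all 6), and were 3241 and 3308 with the muscle covariate. Among the 10 genes the count called higher ran from 0 to 4 when 1 library was left out and was 1 with DESeq2 and 4 with the muscle covariate (0 in the edgeR fit of all 6 libraries); the count called lower was 1 in every alternative. Direction turned for uncalled values only: Nr1h2 had a log2 fold change of 0.015 without cKO replicate 2 and 0.032 with the muscle covariate (-0.08 on all 6), with a range of -0.216 to 0.015 when 1 library was left out, and Mylip -0.187 without cKO replicate 1 (0.12 on all 6), with a range of -0.187 to 0.367. The cause was not tested. Another normalization and no filter on low counts changed no call among the 10 genes. With the replicate number as a block the counts were 744 higher and 1108 lower, and Npc1 stayed the 1 call among the 10 genes. Deviations of same-numbered cKO and WT libraries correlated at -0.223, -0.231 and -0.0797, and no cKO library correlated best with the WT library of its number. With 3 libraries per group, these values cannot show whether same-numbered libraries share more than a number. With 3 libraries per group, changes under 2-fold in noisy genes such as Apod were not resolved.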

Other observations

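Among enzymes that act on sterols outside the synthesis pathway, Cyp39a1 and Cyp7b1 fell and Cyp27a1 rose in cKO nerves. The list of 7 tested genes of oxysterol and late sterol metabolism had 5 lower, 1 higher and a median log2 fold change of -1.49, but 3 of the 5, Dhcr7, Cyp51 and Ebp, are synthesis genes and also belong to the synthesis list of the report. Cyp39a1, an oxysterol 7-alpha-hydroxylase, read 42.0, 26.9 and 48.7 CPM in cKO and 213, 239 and 215 CPM in WT nerves, a 5.67-fold fall (log2 fold change -2.50, SE 0.22, edgeR adjusted p = 0.00116). Cyp7b1, which hydroxylates side-chain oxysterols, read 22.5, 11.7 and 21.6 CPM in cKO and 49.9, 56.0 and 50.4 CPM in WT nerves (log2 fold change -1.49, edgeR adjusted p = 0.00985). All 5 genes were called lower in every fit that left out 1 library. Cyp27a1, which makes 27-hydroxycholesterol and is expressed by macrophages, rose to 15.4, 14.0 and 11.5 CPM in cKO, against 7.82, 7.98 and 9.47 CPM in WT nerves (log2 fold change 0.70, edgeR adjusted p = 0.0221). It was not called when cKO replicate 1 or any WT library was dropped. The remaining gene, Cyp46a1, which makes 24-hydroxycholesterol in neurons, read 4.94 ± 0.675 CPM in cKO and 5.06 ± 0.505 CPM in WT nerves (SD, n = 3 each, log2 fold change -0.03, edgeR adjusted p = 0.909).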
